A study of Mus musculus with 6 samples.

Results

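The cytosolic ribosomal protein genes of the mouse encode the protein part of the ribosome that translates nuclear mRNAs. They were taken here as the rows of the deposited count table whose symbols begin with Rpl or Rps followed by a number, or by P0 to P2 or A as in Rplp0 and Rpsa, without the Rps6 kinases and without rows named as pseudogenes. This gave 80 of 23420 genes, 49 named for the large subunit and 31 for the small subunit. Of these, 76 had enough counts to be tested among 12257 tested genes. RNA was sequenced from the lens transition zone, the band where epithelial cells stop dividing and begin to elongate into fibre cells, of mouse embryos at E14.5. The 3 libraries labelled mutant carried Le-Cre, Etv4-/-, Etv5 fl/fl and Etv1 fl/fl, and the 3 control libraries, titled wild type, carried Le-Cre alone. Both groups therefore carried the Le-Cre transgene, which drives Cre recombinase from Pax6 regulatory sequence in the surface ectoderm, the source of the lens, and both were of mixed strain background and were flash frozen in OCT embedding medium. The labels do not say whether libraries of a group came from separate embryos or from pools, so p-values measure only the spread between these libraries.

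Each ribosome holds 1 copy of nearly every ribosomal protein, and cells make these proteins in matched amounts; surplus proteins are degraded. In mammals their mRNAs begin with a run of pyrimidines, the 5′ terminal oligopyrimidine motif, through which mTORC1 signalling controls how actively they are translated. A change in translation alone would not alter an mRNA count. Etv1, Etv4 and Etv5 are ETS transcription factors of the Pea3 group, which in the lens act downstream of fibroblast growth factor receptors. ETS factors as a class bind a core of GGAA, and ETS sites are common in mammalian ribosomal protein promoters.

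Library totals lay between 13364742 and 17301168 counts. Etv1 stood at 29.0, 21.6 and 28.9 CPM (counts per 1000000 counts, scaled here by trimmed mean of M values, TMM) in the libraries labelled mutant, against 45.3, 56.1 and 70.7 CPM in control libraries, and Etv5 stood at 116.2, 111.2 and 82.8 CPM against 245.3, 176.7 and 168.1 CPM. Etv4 went against its label, with 4.92, 3.71 and 4.19 CPM in the libraries labelled mutant and 2.91, 2.12 and 3.21 CPM in control libraries. Mutant below therefore means labelled mutant. The table does not say which exons the counts cover, so transcripts that lack the deleted part cannot be told from intact ones. Mutant library 1 held 711 counts of Xist and 2 of Ddx3y, while the other 5 libraries held at most 3 counts of Xist and between 521 and 890 of Ddx3y, so the sex of its tissue differs from theirs. Summed lens fibre markers came to 5564, 10195 and 5591 CPM in mutant libraries, against 17534, 11835 and 11109 CPM in control libraries, and 1 of the 9 tested markers passed the test. Summed lens epithelium markers ranged between 338.6 and 653.3 CPM in mutant libraries and between 320.5 and 986.3 CPM in control libraries. Macrophage markers summed to 27.5, 3.54 and 29.9 CPM in mutant libraries and to at most 8.66 CPM in control libraries, and retina markers to at most 0.871 CPM in any library. In bulk tissue fewer cells of a type and less RNA per cell cannot be told apart.

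Promoter windows are shown for the 3 members whose values moved most between groups (Rps28, Rps18 and Rpl35a) and for a pair with an ETS match near the start whose groups overlapped (Rps6 and Rps7). Rpl35a has 3 promoter entries with different annotated starts, and only the window of the middle start is printed. The sequences are from RefSeq (GRCm38.p6), 5′ to 3′ on the gene's strand, with 100 bases before the annotated start and 30 bases after it. Capitals mark the ETS motif searched, CCGGAAG or its reverse complement CTTCCGG. The files' own build is mm9, and these coordinates are not transferable to it.
Rps28, chr17:33824533-33824662, minus strand: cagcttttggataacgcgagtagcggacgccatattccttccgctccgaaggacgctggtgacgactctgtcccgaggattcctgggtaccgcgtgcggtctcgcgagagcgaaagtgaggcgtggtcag
Rps18, chr17:33955636-33955765, minus strand: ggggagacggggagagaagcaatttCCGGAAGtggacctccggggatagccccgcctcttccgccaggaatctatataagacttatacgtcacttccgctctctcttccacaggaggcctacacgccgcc
Rpl35a, chr16:33056382-33056511, plus strand: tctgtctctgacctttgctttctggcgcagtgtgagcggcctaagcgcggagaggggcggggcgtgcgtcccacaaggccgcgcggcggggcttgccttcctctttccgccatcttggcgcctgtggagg
Rps6, chr4:86857338-86857467, minus strand: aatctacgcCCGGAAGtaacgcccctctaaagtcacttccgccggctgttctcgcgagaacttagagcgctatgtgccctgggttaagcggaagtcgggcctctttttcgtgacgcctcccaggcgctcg
Rps7, chr12:28635924-28636053, minus strand: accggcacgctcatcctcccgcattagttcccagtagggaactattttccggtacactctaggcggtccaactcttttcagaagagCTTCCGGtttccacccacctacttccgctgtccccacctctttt

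The ETS motif occurred in Rps18 at 75 and 157 bases upstream of the start, the farther copy lying outside the printed window, in Rps6 at 91 bases upstream and in Rps7 at 14 bases upstream. No match was found in the windows of Rps28, Rpl35a or Rplp0, searched over 250 bases before and 50 bases after each start. Over the 60 members with a promoter entry, 25 (41.7%) held the motif on either strand, as did 1876 of 9182 tested genes with an entry (20.4%). A pyrimidine run, taken as C followed by pyrimidines and 5 bases long in all within 20 bases of the start, was present in 50 of the 60 members (83.3%) and in 54.8% of the tested genes. The median log2 fold change, mutant over control, was 0.05 in the 23 tested members with the ETS motif and 0.10 in the 33 without it. A match is a description of letters in a window; binding was not measured.

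The comparison asked whether the ribosomal protein mRNAs differed in level between the transition zones of triple mutant and control lenses. Across the family they differed little. None of the 76 tested members passed the test, edgeR's quasi-likelihood F test with Benjamini-Hochberg adjustment over all tested genes and a threshold of 0.05, against 272 of all tested genes (2.22%). At an unadjusted p under 0.05 edgeR counted 3 members, which is 3.95% of them, against 16.2% of all tested genes. In 4 members (5.26%) the mutant and control CPM did not overlap, against 22.7% of all tested genes; these were Rpl35a and Rpl22, higher in mutant libraries, and Rps28 and Rps18, lower.

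The fold changes were also narrow in range. The 95% interval of the log2 fold change lay inside 1 in either direction for 71 of 76 members (93.4%), against 59.8% of all tested genes, and the 5 exceptions were Rps28, Rps18, Rpl35a, Rpl30 and Rps27. The log2 fold change lay within 0.3 of zero in 70 members and within 0.1 in 33. The median standard error of the log2 fold change was 0.16 over the members and 0.23 over all tested genes. The members had a median of 171.9 CPM, and these comparisons with all tested genes were not matched for level. The median log2 fold change was 0.10 over the 76 members, with 65 above zero, and 0.00 over all tested genes, with 50.2% above zero; with limma voom and quality weights the members' median was -0.03, with 31 above zero. It was 0.09 over the 45 large-subunit members and 0.10 over the 31 small-subunit members.

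**Figure D1:**
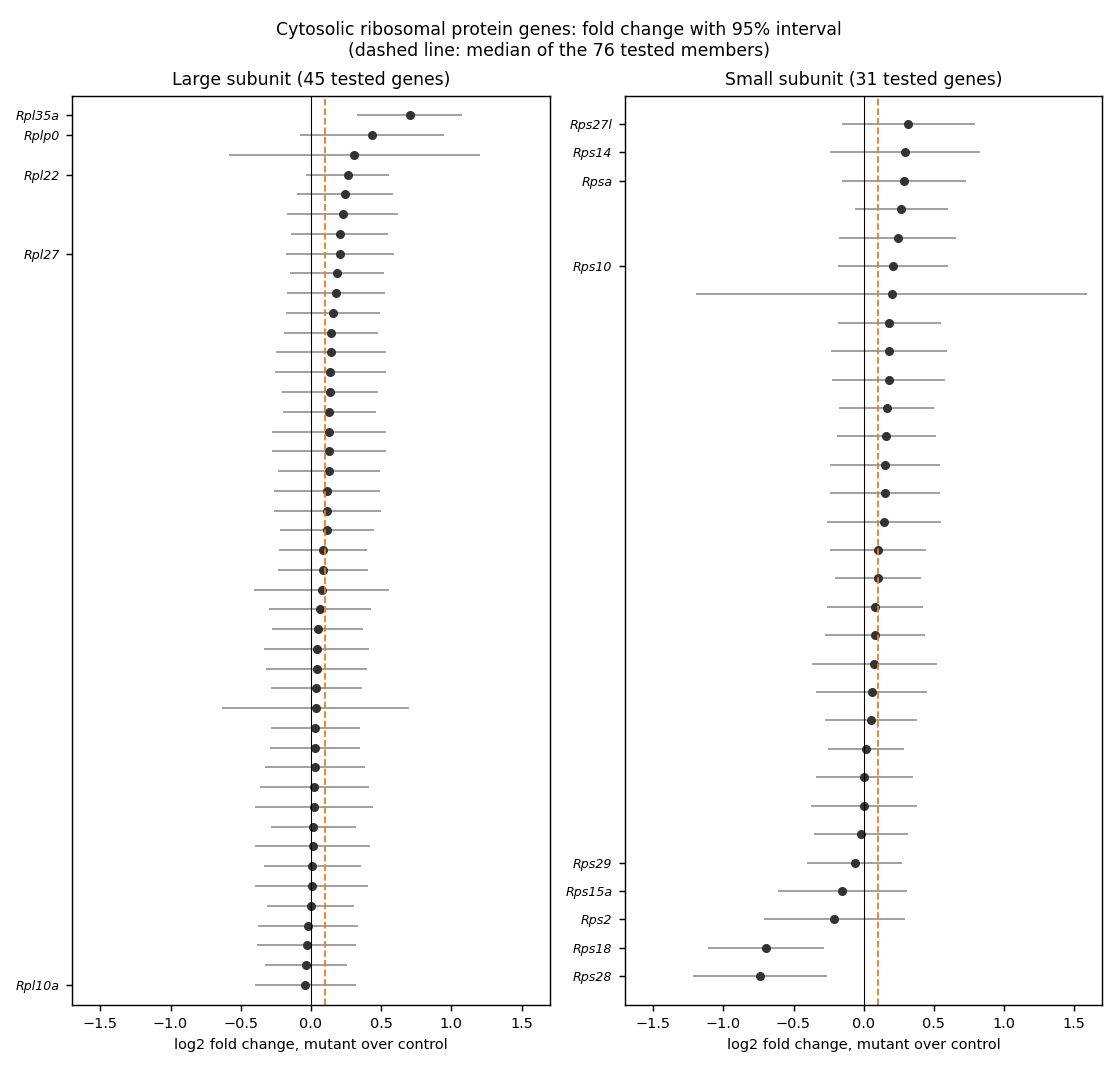
Log2 fold change, mutant over control, of the 76 tested ribosomal protein genes with 95% intervals (horizontal axis), large subunit on the left and small subunit on the right, in order of fold change and labelled for some of the genes described in the text. Most points lie close to the dashed median at 0.10, while Rpl35a at 0.70 stands above the others, and Rps18 at -0.70 and Rps28 at -0.74 stand below them.

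Rps28 encodes a protein in the head of the small subunit. Its level was 41.0, 31.7 and 49.2 CPM in mutant libraries, against 53.3, 69.2 and 80.8 CPM in control libraries, from 385 to 1459 counts per library. Every mutant library lay below every control library, and the groups did not overlap. The log2 fold change was -0.74 ± 0.21 (SE, n = 3 each), with an adjusted p of 0.128 by edgeR.

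Rps18 encodes another protein of the small-subunit head, at a contact with the large subunit, and is often used as a reference gene in quantitative PCR. Its level was 136.2, 131.8 and 175.5 CPM in mutant libraries, against 189.8, 249.8 and 278.3 CPM in control libraries. The groups again did not overlap, although mutant library 3 and control library 1 were close. The log2 fold change was -0.70 ± 0.18 (SE, n = 3 each), with an adjusted p of 0.10 by edgeR.

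Rpl35a encodes a large-subunit protein that is mutated in some human patients with Diamond-Blackfan anaemia, a failure of red cell production. Its level was 66.5, 70.9 and 83.7 CPM in mutant libraries, against 43.6, 53.3 and 38.9 CPM in control libraries. All mutant libraries lay above all control libraries. The log2 fold change was 0.70 ± 0.16 (SE, n = 3 each), with an adjusted p of 0.0719 by edgeR.

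These 3 genes were the members on which the tools disagreed. DESeq2 called Rpl35a (adjusted p = 0.0115), Rps18 (0.0178) and Rps28 (0.0392), against 6.7% of the genes it tested. limma voom with quality weights called Rps18 and Rps28, against 6.54% of all tested genes, and gave Rpl35a an adjusted p of 0.0597. edgeR with each library's crystallin share as a covariate called all 3, against 6.51% of all tested genes. The mean crystallin share was 24.5% in mutant libraries and 29.9% in control libraries, so that covariate is not independent of group. The authors' deposited table listed all 80 members and gave an adjusted p for 75; at an adjusted p under 0.05 it held the same 3 (4.0% of the 75), against 6.11% of the 13644 genes with an adjusted p. In the authors' deposited table the log2 fold change was 0.69 for Rpl35a, -0.68 for Rps18 and -0.72 for Rps28. In each of these lists the share of members called lay below the share of all genes called. When single libraries were left out, edgeR called none of the 3, with log2 fold changes between -0.90 and -0.59 for Rps28, between -0.84 and -0.57 for Rps18 and between 0.60 and 0.84 for Rpl35a. Without mutant library 1, whose tissue differed in sex, the values were -0.74 for Rps28, -0.64 for Rps18 and 0.77 for Rpl35a.

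**Figure D2:**
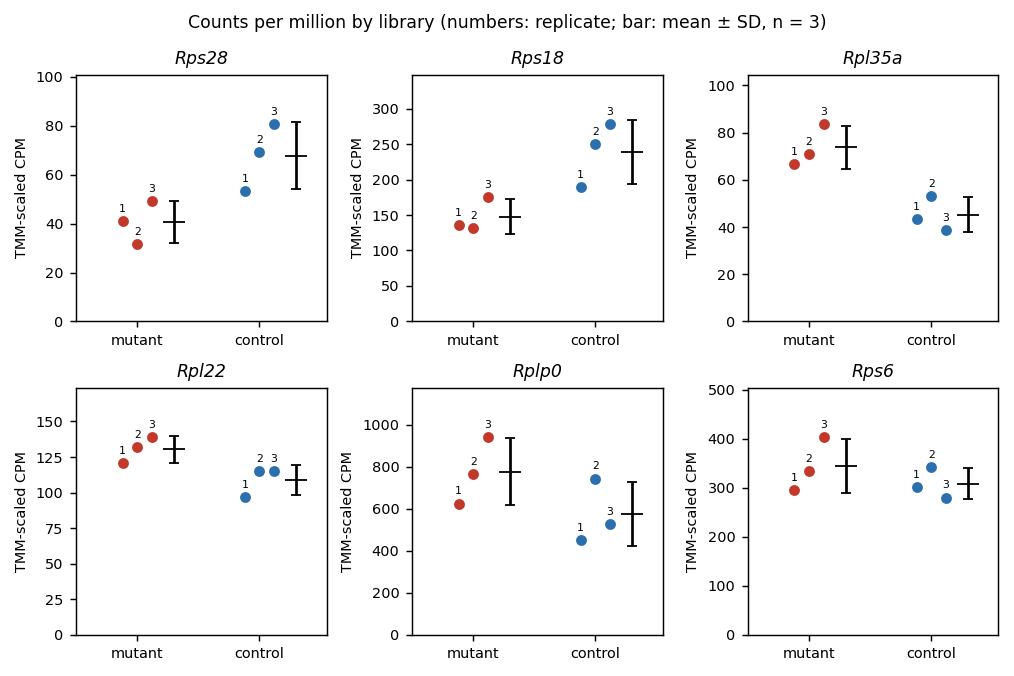
TMM-scaled CPM of 6 ribosomal protein genes in each library, mutant left and control right, with points numbered by replicate and a bar for the mean ± SD (n = 3). Mutant and control points do not overlap for Rps28, Rps18, Rpl35a and Rpl22, whereas they do for Rplp0 and Rps6.

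Because many members moved together between libraries, each gene was also expressed as a percentage of the summed member counts of its library, which leaves the composition of the family. Rps18 made up 0.862%, 0.750% and 0.853% of the family in mutant libraries, against 1.26%, 1.32% and 1.72% in control libraries. Rps28 made up 0.260%, 0.181% and 0.239% in mutant libraries, against 0.355%, 0.365% and 0.500% in control libraries. Rpl35a made up 0.421%, 0.404% and 0.407% in mutant libraries, against 0.290%, 0.282% and 0.241% in control libraries. The groups overlapped for none of the 3. The log2 ratio of mean percentages was -0.80 for Rps18 and -0.84 for Rps28, larger in size than the log2 fold change in CPM, and 0.60 for Rpl35a, smaller than it. On this scale 8 of 76 members (10.5%) did not overlap between groups, against 17.2% of all tested genes divided by the same sums. Among them were Rpl35a, Rps20 and Rplp0, higher in mutant libraries, and Rps28, Rps18, Rpl28 and Rps19, lower. The log2 ratio of mean percentages was -0.10 for Rpl28 and -0.12 for Rps19.

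Rps28 and Rps18 lie near each other on chromosome 17, with 9 tested genes between them in the order of the GRCm38.p6 annotation. Of those 9 genes, 1 passed the test by edgeR, against 2.22% of all tested genes. This was Rgl2, which encodes a regulator of Ral GTPases. It fell by 2.13 ± 0.19 on the log2 scale (SE, n = 3 each, adjusted p = 0.000998 by edgeR). Rgl2 stood at 10.1, 8.24 and 9.59 CPM in mutant libraries, against 38.6, 37.2 and 46.7 CPM in control libraries. The direct neighbours of Rps28 (Kank3 and Ndufa7) and of Rps18 (B3galt4 and Vps52) had adjusted p-values between 0.516 and 0.965 by edgeR. H2-K1, a histocompatibility gene that differs between strains and lies 2 tested genes past Rps18, stood at 7.20, 3.38 and 4.41 CPM in mutant libraries, against 2.39, 2.61 and 3.10 CPM in control libraries. Its log2 fold change was 0.89, with an adjusted p of 0.313 by edgeR. H2-Ke6, H2-DMa and H2-Eb1, within 10 tested genes past Rps18, went the other way, at -0.13, -0.56 and -1.50. Tap1, in the same stretch, went the same way as H2-K1, at 1.14. Counts were low for H2-Eb1 (at most 1.33 CPM in any library), Tap1 (at most 3.35 CPM) and H2-DMa (at most 5.60 CPM). The adjusted p-values of H2-Ke6, H2-DMa, H2-Eb1 and Tap1 by edgeR lay between 0.337 and 0.869. The 4 other tested members on chromosome 17 (Rps2, Rps10, Rpl10a and Rpl36) had log2 fold changes between -0.21 and 0.21. Whether the shared position bears on the lower values of Rps28 and Rps18 was not tested.

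Rpl35a lies on chromosome 16, as does Etv5, with 44 tested genes between them, and 0 of its 20 nearest tested neighbours passed the test by edgeR. Rpl27 lies on chromosome 11 with 9 tested genes between it and Etv4. Of the 20 nearest tested neighbours of Rpl27, 2 passed the test by edgeR, against 2.22% of all tested genes. These were Wnk4 (log2 fold change 2.15, adjusted p = 0.0330) and Rdm1 (1.17, adjusted p = 0.0362). Wnk4 was low, with at most 10.5 CPM in any library. Whether their position bears on these values was not tested. Rpl27 stood at 128.8, 147.8 and 182.2 CPM in mutant libraries, against 124.2, 154.5 and 119.6 CPM in control libraries, and the groups overlapped. Its log2 fold change was 0.20, with an adjusted p of 0.591 by edgeR, and ran between 0.06 and 0.33 when single libraries were left out.

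Among the proteins of the P stalk, which recruits translation factors to the large subunit, Rplp0 had the largest change. Its level was 624.9, 764.5 and 940.4 CPM in mutant libraries, against 452.1, 743.8 and 527.0 CPM in control libraries. The groups overlapped, since control library 2 exceeded mutant library 1. The log2 fold change was 0.44 ± 0.22 (SE, n = 3 each), with an adjusted p of 0.382 by edgeR, and it ranged between 0.28 and 0.67 when single libraries were left out. Its partners were closer between groups, with Rplp1 at 143.0 ± 27.9 CPM in mutant libraries and 135.6 ± 33.6 CPM in control libraries, Rplp2 at 139.1 ± 20.5 and 124.8 ± 11.7 CPM, and Rpl12, which binds beside the stalk, at 153.8 ± 24.5 and 147.1 ± 20.3 CPM (SD, n = 3 each).

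Rpl22 encodes a large-subunit protein that mice can lack without losing general translation, while its paralogue Rpl22l1 takes its place. It stood at 120.5, 132.1 and 138.9 CPM in mutant libraries, against 96.9, 114.8 and 114.9 CPM in control libraries. The groups did not overlap in CPM, but the log2 fold change was small at 0.26 ± 0.13 (SE, n = 3 each), with an adjusted p of 0.365 by edgeR. As a percentage of the summed member counts the groups did overlap, with mutant library 3 at 0.675% and control library 3 at 0.711%. Rpl22l1 made up 29.4 ± 1.36% of the counts of the pair in mutant libraries and 30.4 ± 2.81% in control libraries (SD, n = 3 each).

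The other paralogous pairs also kept similar proportions. Rpl7l1 made up 17.3 ± 3.41% of its pair with Rpl7 in mutant libraries and 18.6 ± 1.02% in control libraries, and Rpl36al made up 47.3 ± 0.594% of its pair with Rpl36a in mutant libraries and 48.1 ± 3.15% in control libraries (SD, n = 3 each). The paralogues known from testis and muscle were almost uncounted. Rpl10l had 0 counts in all libraries, which allows at most 0.247 CPM in any of them (3 counts, counting error only), and Rpl39l and Rpl3l had 3 counts each over all 6 libraries.

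Proteins of the nascent chain tunnel and its exit covered a wide range of levels. Rpl4, which lines the narrowest part of the tunnel and was the member with the most counts, stood at 918.5 ± 53.2 CPM in mutant libraries and 909.0 ± 38.2 CPM in control libraries (SD, n = 3 each). It was also the steadiest member, with a highest library 1.12 times its lowest. Rpl19 stood at 384.6 ± 50.4 CPM in mutant libraries and 340.2 ± 41.4 CPM in control libraries, and Rpl31 at 110.1 ± 14.46 and 100.4 ± 12.3 CPM (SD, n = 3 each). The 7 tested genes of this group had log2 fold changes between 0.02 and 0.18, and the 95% interval of each spanned zero.

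Rpl5 and Rpl11 bind 5S rRNA and, when ribosome assembly fails, bind the p53 inhibitor Mdm2. Rpl5 stood at 268.2 ± 32.2 CPM in mutant libraries and 244.8 ± 27.3 CPM in control libraries, and Rpl11 at 189.0 ± 24.7 and 187.7 ± 23.7 CPM (SD, n = 3 each). Differences between groups were within the spread between libraries for both. Of 11 members linked to Diamond-Blackfan anaemia in humans, 10 were tested and none passed the test by edgeR, while 1, Rpl35a, had an unadjusted p under 0.05 and was called by DESeq2. Their median log2 fold change was 0.08, and Rpl35a was the one with non-overlapping groups. Of all tested genes 2.22% passed by edgeR, 16.2% had an unadjusted p under 0.05 and 22.7% had non-overlapping groups. DESeq2 called 6.7% of the genes it tested. Rps19, the gene most often mutated in that disease, stood at 192.0 ± 26.6 CPM in mutant libraries and 194.4 ± 20.02 CPM in control libraries (SD, n = 3 each).

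In the small subunit, Rps6, the ribosomal substrate of S6 kinase, stood at 295.1, 335.1 and 403.3 CPM in mutant libraries, against 301.4, 343.2 and 280.2 CPM in control libraries. The groups overlapped, and mutant library 3 was the highest. Rps4x, one of 4 X-linked members, stood at 355.5 ± 39.7 CPM in mutant libraries and 317.4 ± 39.6 CPM in control libraries (SD, n = 3 each). The log2 fold changes of Rps4x, Rpl10, Rpl39 and Rpl36a lay between 0.03 and 0.16, and between 0.08 and 0.25 without mutant library 1.

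Further small-subunit members with a positive fold change were Rps27l, whose human counterpart is a p53 target, Rps14, whose loss of 1 copy in humans contributes to the 5q- syndrome, and Rpsa, known also as the laminin receptor. Their log2 fold changes were 0.32 for Rps27l, 0.29 for Rps14 and 0.29 for Rpsa, with adjusted p-values between 0.498 and 0.579 by edgeR. When single libraries were left out these ran between 0.13 and 0.48 for Rps27l, between 0.04 and 0.45 for Rps14 and between 0.14 and 0.44 for Rpsa. Rps14 stood at 327.8, 376.7 and 558.9 CPM in mutant libraries, against 268.8, 416.0 and 346.4 CPM in control libraries, so that mutant library 3 stood alone at the top. On the negative side, after Rps28 and Rps18, came Rps2 at -0.21, Rps15a at -0.15 and Rps29 at -0.06, and in the large subunit Rpl10a, a protein of the L1 stalk, at -0.04. Rps2, which lines the mRNA entry, stood at 318.4, 294.6 and 410.5 CPM in mutant libraries, against 277.5, 475.0 and 431.3 CPM in control libraries, and the groups overlapped. Its log2 fold change ran between -0.41 and -0.05 when single libraries were left out.

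Among 5 members in common use as reference genes for quantitative PCR (Rplp0, Rpl13a, Rps18, Rpl19 and Rpl32), the log2 fold changes ran between -0.70 for Rps18 and 0.44 for Rplp0. Rpl13a lay between them, at 169.0 ± 34.2 CPM in mutant libraries and 164.1 ± 14.46 CPM in control libraries, as did Rpl32, at 299.0 ± 52.5 and 271.8 ± 42.9 CPM (SD, n = 3 each). None of the 5 passed the test by edgeR, against 2.22% of all tested genes. Rps18 had an unadjusted p under 0.05 by edgeR, as did 16.2% of all tested genes. It was called by DESeq2 and limma voom, which called 6.7% and 6.54% of the genes they tested.

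Most of the variation in the family ran between libraries and not between groups. The members' summed share of all counts was 1.8%, 1.60% and 2.30% in mutant libraries, against 1.21%, 1.83% and 1.805% in control libraries. Mutant library 3 was the highest and control library 1 the lowest, and the other 4 libraries lay together. The means were 1.90 ± 0.361% in mutant libraries and 1.61 ± 0.351% in control libraries (SD, n = 3 each), a difference of 0.284 percentage points that is smaller than either SD. It was 0.0844 points without mutant library 3, 0.0821 points without control library 1 and 0.435 points without mutant library 2.

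The same pair of libraries set the extremes gene by gene. Mutant library 3 held the highest CPM of 50 of the 76 tested members, and control library 1 held the lowest of 44. The median over members of the log2 deviation from each gene's mean was -0.12, 0.02 and 0.23 in mutant libraries, against -0.20, 0.15 and -0.10 in control libraries. The median log2 fold change of the members was 0.00 without mutant library 3, 0.03 without control library 1 and 0.21 without control library 2. The highest library exceeded the lowest by a factor of 1.42 at the median member, within a range of 1.12 to 2.55 that Rps28 topped.

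The crystallins, the abundant structural proteins of fibre cells, took a large and uneven share of the counts: 21.7%, 32.2% and 19.5% in mutant libraries, against 37.6%, 30.2% and 21.8% in control libraries, over 16 genes. None of these 16 genes had a log2 fold change above zero. Their median was -0.86, and 1 was called lower by edgeR. Control library 1 had both the highest crystallin share and the lowest ribosomal protein share, and mutant library 3 had the reverse. These libraries differed in other tissue markers too. Summed mesenchyme markers were lowest in control library 1 (44.9 CPM) and highest in mutant library 3 (168.1 CPM). Summed red cell markers were highest in mutant library 3 (269.6 CPM), followed by control library 1 (156.8 CPM). Whether tissue content bears on the ribosomal protein share was not tested. Counted without crystallins, the members' share was 2.30%, 2.35% and 2.85% in mutant libraries, against 1.94%, 2.62% and 2.31% in control libraries, and the difference of means was 0.215 percentage points. Normalization without crystallin genes left the members' median log2 fold change at 0.10, with 65 of 76 above zero and 0 called by edgeR. With the crystallin share as a covariate the median was 0.07, with 51 above zero. That covariate was itself lower in mean in mutant libraries, so it is not independent of group.

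**Figure D3:**
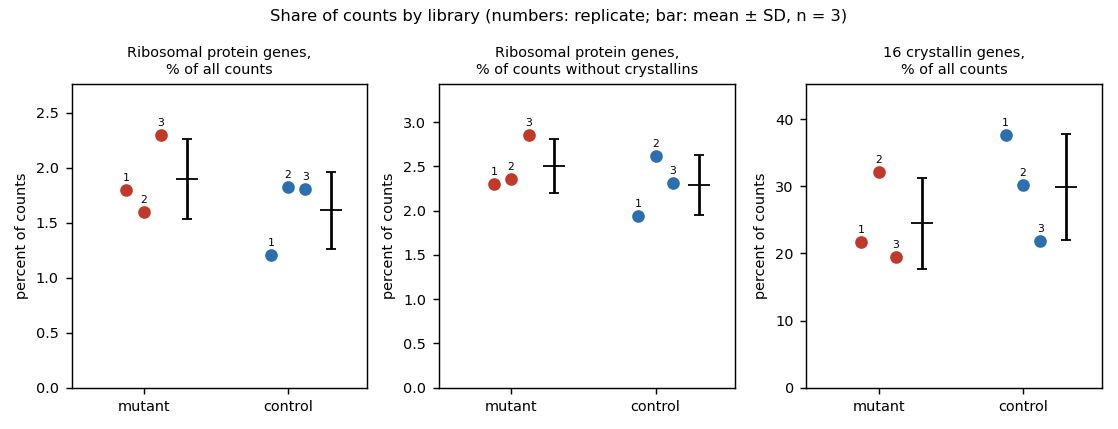
Percent of counts by library, mutant left and control right, for the ribosomal protein genes among all counts, the same genes among counts without crystallins, and 16 crystallin genes among all counts, with points numbered by replicate and bars for the mean ± SD (n = 3). Mutant library 3 is highest and control library 1 lowest in the ribosomal protein shares, and the mutant and control points overlap in all 3 panels.

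The balance of the subunits did not differ beyond the spread between libraries. Counts of large-subunit members divided by those of small-subunit members gave 1.49 ± 0.0534 in mutant libraries and 1.47 ± 0.0627 in control libraries (SD, n = 3 each). Fau, Rps3a1 and Gnb2l1 (the older symbol of Rack1) encode cytosolic ribosomal proteins under symbols that the selection leaves out. Gnb2l1 stood at 581.1, 751.4 and 732.7 CPM in mutant libraries, against 567.2, 647.6 and 533.9 CPM in control libraries, and the groups overlapped. These 3 genes had log2 fold changes between 0.08 and 0.24 and none passed the test by edgeR, DESeq2 or limma voom or had an unadjusted p under 0.05 by edgeR.

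The measured mRNA levels of the members per length were not alike. Mean CPM divided by the length in kb of 1 principal transcript per gene ran between 1.83 for Rps27 and 836.4 for Rpl13 among the tested members, with a median of 273.9 CPM per kb. Rpl41 (760.8) and Rps14 (640.6) were also near the top of the same scale. By CPM without regard to length the members with the most counts included Rpl4 (913.7 CPM over all 6 libraries), Rplp0 (675.4), Rpl13 (652.4), Rpsa (646.7) and Rps3 (533.1). A mean of at least 20 CPM was reached by 73 of the 80 members. Of the remaining 7, Rpl10l, Rpl39l and Rpl3l are the tissue-restricted paralogues named above. Rpl26, Rpl30 and Rpl34 are core ribosomal proteins, and Rps27 forms a paralogous pair with Rps27l.

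Rpl26, which sits at the tunnel exit and binds p53 mRNA in human cells, had 0 counts in all 6 libraries and could not be tested. Rps27 had 11, 10 and 12 counts in mutant libraries, against 8, 10 and 10 counts in control libraries, while its paralogue Rps27l made up 99.6 ± 0.167% of the counts of the pair in mutant libraries and 99.6 ± 0.0774% in control libraries (SD, n = 3 each). Rpl30 had 52, 46 and 55 counts in mutant libraries, against 28, 40 and 55 counts in control libraries, and Rpl34 had 103, 80 and 110 counts against 67, 118 and 94 counts. Counts this low in both groups leave wide intervals, and only large differences would be detectable in Rps27 and Rpl30.

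Ribosomal protein genes have many processed pseudogenes, so part of a member's transcript is also found elsewhere in the genome. The share of 50-base stretches of the principal transcript that also occur in another annotated gene's transcripts was 98.6% for Rps27, 76.4% for Rpl30, 71.3% for Rpl26 and 50.6% for Rpl34. It was also high in some well-counted members, reaching 95.1% for Rpl35 at 110.2 CPM per kb and 86.7% for Rpl9 at 424.7 CPM per kb, and its median over the 73 members with at least 20 CPM was 57.4%. For the members described above it was 75.7% for Rps28, 86.7% for Rps18, 54.5% for Rpl35a and 41.8% for Rplp0. How the authors counted reads that match several places is not given in the sources used here, so the levels of members with near-identical copies are uncertain. The part of shared sequence in the low counts was not tested. The low value of Rps20, at 33.4 CPM per kb, belongs to a principal transcript of 3706 bases, the longest among the members.

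**Figure D4:**
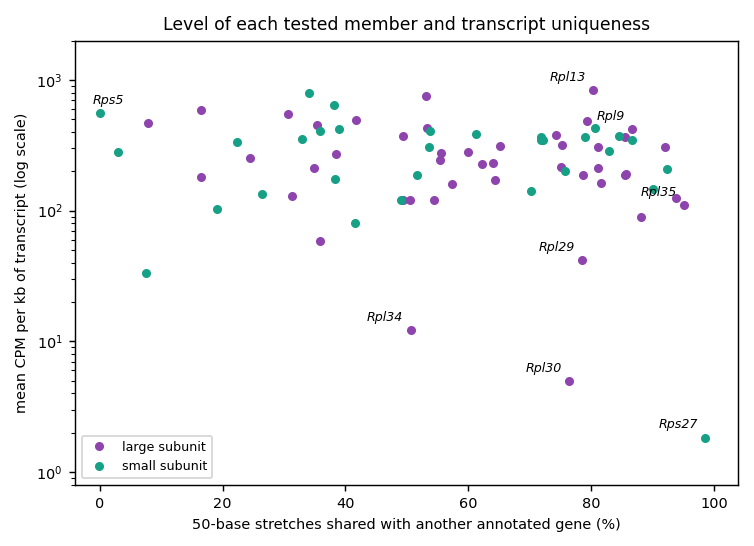
Mean CPM per kb of transcript over all 6 libraries (vertical, log scale) of each tested ribosomal protein gene against the percentage of its 50-base stretches found in another annotated gene (horizontal), with large- and small-subunit members in different colours. Rps27 at 1.83, Rpl30 at 4.97 and Rpl34 at 12.2 CPM per kb lie far below the other members, while Rpl35 (95.1% shared) and Rpl9 (86.7% shared) have higher levels.

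Genes that act with the ribosomal proteins were read from 10 lists, and 3 of their 297 tested genes (1.01%) passed the test by edgeR, against 2.22% of all tested genes. Of 76 tested mitochondrial ribosomal proteins none passed, and their median log2 fold change was 0.12; of 66 tested ribosome assembly and rRNA processing factors none passed either, with a median of 0.11. Noc2l, an assembly factor that in human cells also acts as a p53 corepressor, stood at 91.1, 95.5 and 95.9 CPM in mutant libraries, against 131.5, 126.3 and 127.1 CPM in control libraries. Its groups did not overlap, but its log2 fold change of -0.45 ± 0.11 (SE, n = 3 each) had an adjusted p of 0.0918 by edgeR. DESeq2 and limma voom each called Noc2l, and limma voom also called 1 mitochondrial ribosomal protein gene, Mrps12. At an unadjusted p under 0.05 edgeR counted 6 mitochondrial ribosomal proteins and 3 assembly factors, a smaller share of either list than the 16.2% of all tested genes. None of 14 tested genes for RNA polymerase I and its factors passed, with a median of -0.06, 0 at an unadjusted p under 0.05 and 0 by DESeq2 or limma voom.

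Among translation factors none of 7 elongation factors and none of 27 tested initiation factors passed, with medians of 0.22 and 0.01. DESeq2 and limma voom called 0 of either list, and at an unadjusted p under 0.05 edgeR counted 0 elongation factors and 1 initiation factor. The elongation factor Eef1a1, whose mRNA is also of the oligopyrimidine class, stood at 1728, 2070 and 2627 CPM in mutant libraries, against 1464, 1893 and 1721 CPM in control libraries. It had the order seen in many ribosomal protein genes, with mutant library 3 highest and control library 1 lowest. Of 7 other oligopyrimidine genes none passed, with a median of 0.12; among them Nap1l1, a histone chaperone, stood at 636.3, 743.4 and 625.9 CPM in mutant libraries, against 931.5, 822.4 and 792.1 CPM in control libraries. None of 7 snoRNA host transcripts passed, with a median of -0.26 and 1 above zero. At an unadjusted p under 0.05 edgeR counted 1 of the other oligopyrimidine genes and 2 of the host transcripts, against 16.2% of all tested genes. DESeq2 and limma voom called 0 of those oligopyrimidine genes and 1 host transcript, Snhg12. Over all genes they called 6.7% and 6.54%. Snhg12 stood at 1.47, 3.63 and 0.381 CPM in mutant libraries, against 11.4, 7.04 and 4.54 CPM in control libraries.

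Of 13 genes of mTORC1 and the repressors of oligopyrimidine mRNAs, 2 were lower and none was higher by edgeR. Over all tested genes the share called in either direction was 2.22%. The list's median log2 fold change was -0.14, with 1 gene above zero. At an unadjusted p under 0.05 edgeR counted 3 of the 13, against 16.2% of all tested genes. Mtor, the kinase of the complex, stood at 39.5, 40.6 and 36.1 CPM in mutant libraries, against 80.1, 70.0 and 84.5 CPM in control libraries. It fell by 1.01 ± 0.13 on the log2 scale (SE, n = 3 each, adjusted p = 0.00803 by edgeR), the groups did not overlap, and with the replicate block the call was lost (adjusted p = 0.0533 by edgeR). Tsc2, which encodes the inhibitor tuberin, stood at 98.3, 122.6 and 88.1 CPM in mutant libraries, against 460.6, 237.6 and 217.5 CPM in control libraries, and fell by 1.57 ± 0.30 on the log2 scale (SE, n = 3 each, adjusted p = 0.0430 by edgeR). The call of Tsc2 was lost without control library 2 (adjusted p = 0.0866), without mutant library 1 (0.176) and without mutant library 3 (0.189), with no filter on low counts (0.0526) and with the replicate block (0.0702), all by edgeR. A kinase and an inhibitor of the same pathway were thus both lower. Eif4ebp1, a translation repressor that Mtor phosphorylates, had a log2 fold change of 0.38 with an adjusted p of 0.189 by edgeR.

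None of 11 p53 pathway genes passed by edgeR, with a median of 0.26 and 3 at an unadjusted p under 0.05, against 16.2% of all tested genes. DESeq2 called 2 of them, Cdkn1a and Phlda3, against 6.7% of the genes it tested, and limma voom called these and Ccng1, against 6.54%. Cdkn1a, the cell cycle inhibitor p21, stood at 79.4, 63.1 and 66.6 CPM in mutant libraries, against 19.1, 38.2 and 44.7 CPM in control libraries, without overlap, and its log2 fold change of 1.03 ± 0.29 (SE, n = 3 each) had an adjusted p of 0.131 by edgeR. Ccng1, another p53 target, stood at 201.1, 172.9 and 169.1 CPM in mutant libraries, against 138.6, 132.2 and 134.6 CPM in control libraries, with a log2 fold change of 0.42 and an adjusted p of 0.137 by edgeR. Of 69 tested oxidative phosphorylation subunits 1 was higher by edgeR and none was lower. Over all tested genes the share called in either direction was 2.22%. At an unadjusted p under 0.05 edgeR counted 4 of the 69, against 16.2% of all tested genes. The 1 called was the complex I gene Ndufa12, at 84.1, 101.2 and 97.5 CPM in mutant libraries against 60.6, 63.8 and 57.8 CPM in control libraries. It rose by 0.63 ± 0.13 on the log2 scale (SE, n = 3 each, adjusted p = 0.0449 by edgeR), and the call was lost on leaving out any single library (adjusted p by edgeR between 0.0650 and 0.162) and with the replicate block (0.138). The median of that list was 0.06.

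**Figure D5:**
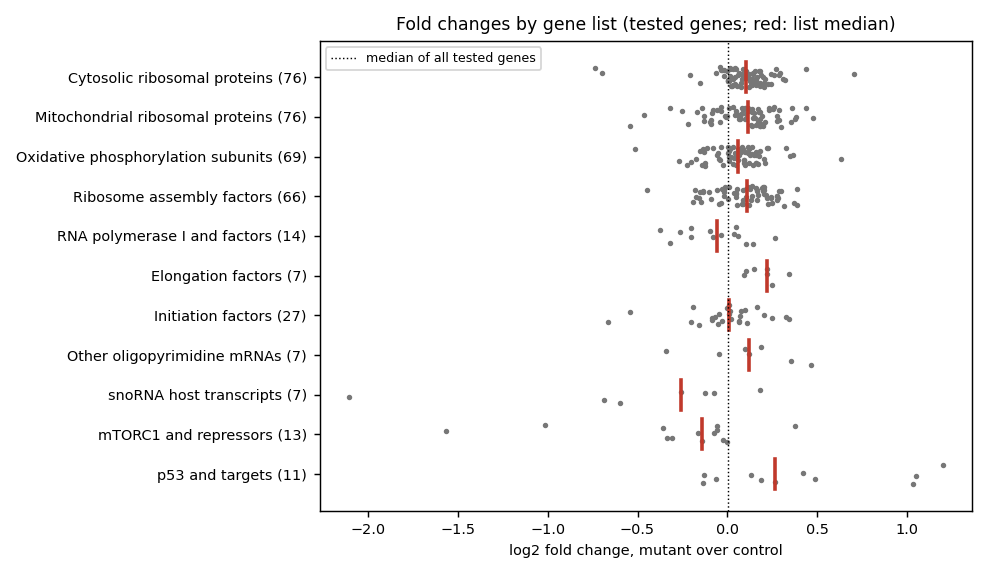
Log2 fold change, mutant over control, of each tested gene (grey points) in the cytosolic ribosomal protein genes and 10 other lists (rows, with the number tested in brackets), with the list median in red and the median of all tested genes as a dotted line. The medians of cytosolic (0.10) and mitochondrial (0.12) ribosomal proteins and of assembly factors (0.11) lie close together, and the 2 outlying points among mTORC1 genes are Tsc2 at -1.57 and Mtor at -1.01.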

How the data were processed

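Amplified cDNA from 6 lens libraries (SMART-seq v4 ultra-low input kit and Nextera XT, per the labels' protocols) was sequenced; the kit does not mark strand and has no molecular identifiers. The limit given for 0 counts covers counting error only, while the 95% intervals of fold changes come from the fit and include the spread between libraries. Per the submitters' processing notes, the tools were DESeq, Cufflinks, TopHat and bcl2fastq 1.8.4 and the build was mm9. Not given in the sources used here are the read counter, its annotation and strand setting, and any filters. Unnormalized whole-number counts for each gene symbol were deposited, per library and as a joint table, and 0 genes differed between them. A further table deposited by the authors holds their comparison: an averaged normalized signal, log2 fold changes, a score for each test, and raw and adjusted p-values.

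Tests used edgeR 4.0.16 (R 4.3.3): filterByExpr (minimum count 10, minimum total 15), TMM scaling, the robust quasi-likelihood F test and Benjamini-Hochberg adjustment over 12257 genes, threshold 0.05. Standard errors were derived from the F statistic. Alternatives were DESeq2 1.42.0, limma 3.58.1 voom with quality weights, DESeq2 size factors, normalization without crystallin or without ribosomal protein genes, no filter, a filter of 5 CPM in 3 libraries, the crystallin share as a covariate, the replicate number as a block, and leaving out each library.

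The members and gene lists were chosen with earlier results of these data known. Genes named are members past the threshold, the 6 highest and 6 lowest by log2 fold change, the 6 of highest CPM, members of structural and clinical lists, paralogous pairs, cytosolic ribosomal proteins under other symbols, and up to 4 genes of lowest p per further list. Rps6 and Rps7 promoters, neighbours on the chromosomes, Rpl28, Rps20, Rpl26, Rpl30, Rpl34, Rpl35, Rpl9 and Rpl41 were named after their values were seen. A few genes that these rules would name are not reported here; they remain in all fits, counts and medians. Transcript lengths, gene order and promoters come from GENCODE and RefSeq annotations of GRCm38, not the files' build; 60 of 80 members matched a promoter entry.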

Additional observations from a re-analysis of the deposited data

How the results depend on the processing

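The count of ribosomal protein genes past the threshold was 0 with edgeR under DESeq2 size factors, both other normalizations, both other filters, the replicate block and every library left out (range 0 to 0). It was 3 with DESeq2, 3 with crystallin share added as a covariate, and 2 with limma voom. The count over the 10 other lists, 3 with edgeR, was 7 with DESeq2, 5 with the covariate, 9 with limma voom and 0 with the replicate block, and ranged between 1 and 3 as single libraries were left out. All genes past the threshold numbered 272 with edgeR, 821 with DESeq2, 801 with limma voom, 798 with the covariate and 122 with the replicate block, and between 91 and 479 with a library left out. The cause of these differences was not tested.

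The groups share replicate numbers. Deviations from the group mean had correlations of -0.28, -0.15 and 0.22 between same-numbered libraries. With 3 libraries per group these values cannot settle whether the numbers mark pairs. With the replicate block the adjusted p by edgeR was 0.165 for Rps28, 0.137 for Rps18, 0.170 for Rpl35a and 0.0533 for Mtor. The members' median log2 fold change lay between 0.00 and 0.21 as libraries were left out, and no setting moved the median of all genes by 0.1. Fold changes near zero reversed when libraries were left out: Rps15a lay between -0.33 and 0.047, Rps29 between -0.16 and 0.048, and Rpl10a between -0.14 and 0.091. Of 330 values of 22 named genes, 298 kept direction and side of the threshold, 13 fell short of it, 14 passed it and 5 reversed. Low counts limit Rpl26, Rpl10l, Rpl39l and Rpl3l, which could not be tested, and then Rps27, Rpl30 and Rpl34.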
